A study of Mus musculus with 4 samples.

Results

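The ES–ELA transition was described as the difference between the ELA control array and the ES control array, gene by gene and by gene family and pathway. Genes entered through the probe with the highest mean signal, and were taken as measured where that probe was well above background, by the scanner software's own flag, on at least 1 of the 2 arrays. That left 24432 genes of the 36039 with a usable probe in the series. Both groups were untreated (Ctrl) cultures of the mouse embryonic stem (ES) cell line E14Tg2A, of strain 129/Ola, with no drug. The ES sample, at 0 days in vitro, was taken from cells grown on gelatin in medium with fetal calf serum and leukemia inhibitory factor (LIF). The ELA sample, at 2 days in vitro, was taken from epiblast-like aggregates (ELA), which form when dissociated ES cells float over agar in a chemically defined medium with N2/B27 and neither serum nor LIF. Time, serum, LIF, medium and loss of attachment therefore changed together and cannot be told apart. Each group was 1 array that held pooled RNA from 3 independent experiments, and both arrays lay on the same slide. The 2 other arrays of the series, of drug-treated ELA cells, entered the joint normalisation, the rule on usable probes and the choice of each gene's probe.

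Naive ES cells resemble the epiblast of the embryo before implantation. LIF, acting through gp130 and STAT3, and serum, which carries BMP activity, hold them in self-renewal, and a network of transcription factors that includes Nanog, Esrrb, Klf4 and Tfcp2l1 maintains the state. When these signals are withdrawn the cells pass to a primed state like that of the epiblast after implantation, marked by Fgf5 and Otx2, from which neural tissue arises by default unless BMP, Wnt or Nodal signals divert it.

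Values below are log2 levels of background-corrected and quantile-normalised signal, given first for ES and then for ELA cells. A level depends on the probe, so it is compared between the 2 arrays and never between genes. A gene was measurable for the comparison where its mean level was also at least 7.5, which 18947 genes reached. It is said to have risen or fallen in ELA cells where the difference, ELA minus ES, was at least 1 in size, a 2-fold difference. With 1 array per group there is no replicate array, no test was made and no p-value is given. The SD of replicate spots within an array was 0.151 for ES and 0.159 for ELA cells on the log2 scale, which covers the technical error of a spot only. Of all measurable genes, 1904 (10.0%) passed the 2-fold threshold. ELA cells had higher levels of 844 genes (4.45%) and lower levels of 1060 genes (5.59%), and the median difference was -0.02. Of 84 measurable genes well above background on the ES array only, 83 fell, and all 24 on the ELA array only rose. The minimum mean level made these calls nearly certain, and the list counts below include such genes. Of 18839 measurable genes well above background on both arrays, 820 rose and 977 fell (9.54% in all). Signals were well above background at 60.6% of gene spots on the ES array and 55.1% on the ELA array. The median local background was 59 on the ES array and 77 on the ELA array, and 188 and 523 gene spots were flagged as outliers. What part background had in the genes well above it on 1 array only was not tested. The split between directions rested on the scaling. With median scaling the median difference moved by -0.21 and 26.7% of the genes past the threshold were higher in ELA cells, against 44.3% with quantile normalisation. With scaling to the 7 E1A spike-in probes, which were 0.35 to 0.44 brighter on the ELA array, it moved by -0.60 and 6.98% were higher. Differences below are therefore relative to the median gene.

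**Figure D1:**
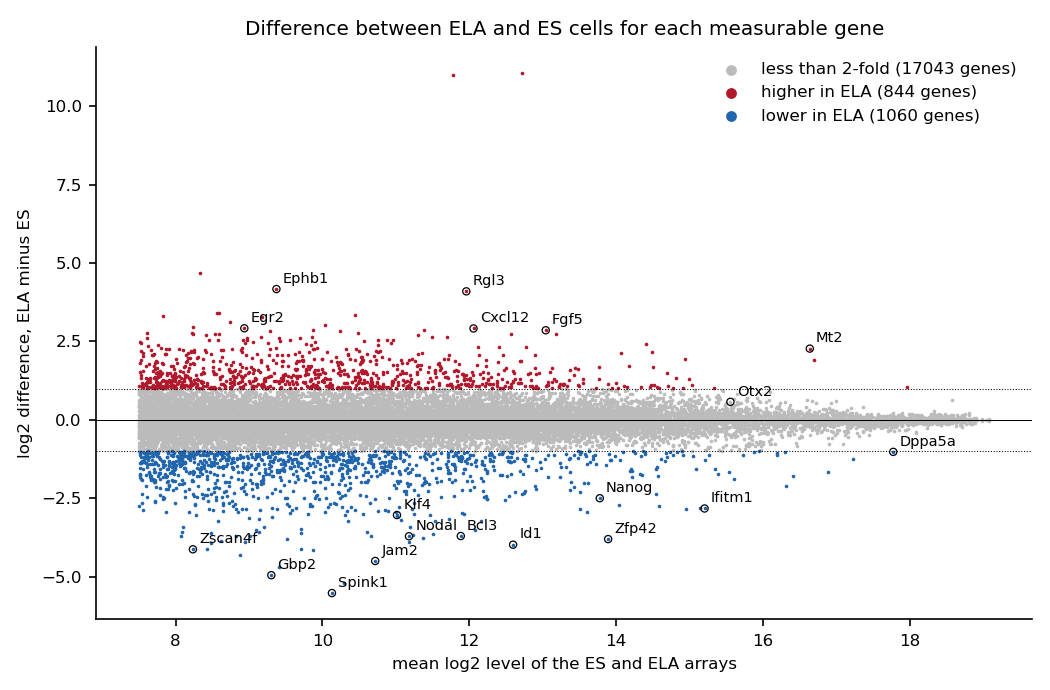
Each point is 1 of the 18947 measurable genes, with the mean log2 level of both arrays on the horizontal axis and the log2 difference, ELA minus ES, on the vertical axis. Red points rose and blue points fell by at least 2-fold (dotted lines), and named genes are circled. The 2 red points near 11 are single spots that were bright on the ELA array and near background on the ES array.

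The cell labels held against their markers. All 5 naive markers checked (Nanog, Klf4, Zfp42, Esrrb and Tfcp2l1) fell, with a mean level of 14.16 in ES and 10.98 in ELA cells. Zfp42, a naive state zinc finger gene also known as Rex1, fell from 15.80 to 11.99, a 13.97-fold difference, and Klf4 fell from 12.54 to 9.50. Of the primed markers, Fgf5, a growth factor gene of the post-implantation epiblast, rose from 11.61 to 14.47, a 7.25-fold difference. Otx2, a homeobox gene of the primed epiblast and forebrain, stood at 15.27 and 15.85 and Pou3f1 at 14.36 and 15.19, both already high in ES cells and neither past the threshold. Over the longer list of naive factors, 17 of 18 fell and none rose (median -2.63), the exception being Pecam1 at 8.67 and 7.94. Of the 23 formative and primed genes, 9 rose and 1 fell (median 0.73). Nanog is open to doubt as a single value: its brightest probe fell from 15.03 to 12.53, while another probe differed by 0.23.

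Markers of other cells were read as a few defining genes and as the whole lists. Of the 5 primitive endoderm markers (Gata4, Gata6, Sox17, Sox7 and Dab2), 3 were well above background in ES and 2 in ELA cells, with mean levels of 6.98 and 7.03. Of the whole list Foxa2 was the only 1 of 13 measurable members past the threshold (7.69%, against 10.0% of all genes). Of the 23 list genes with a usable probe, 8 were well above background on neither array. Of the 5 trophoblast markers (Cdx2, Elf5, Gata3, Krt7 and Hand1), 4 were well above background in ES and 1 in ELA cells, with mean levels of 7.58 and 6.81. Of the 14 measurable members of the whole trophoblast list, however, 5 fell (35.7%, against 10.0% of all genes) and none rose (median -0.74). These were Tfap2c (12.65 to 9.79), Tead4 (9.18 to 7.40), Krt19 (12.56 to 10.87) and the signalling genes Id2 and Bmp4, several of which ES cells also express. Of the 4 primitive streak markers, T and Gsc were well above background on both arrays at levels near it (T at 7.01 and 6.98, Gsc at 6.71 and 7.13), and Mixl1 and Mesp1 on neither. Of the 4 neural markers, Sox1 stood at 7.87 and 8.18 and Pax6 at 8.04 and 7.91, Neurog2 was not well above background, and Tubb3 stood at 12.62 and 13.30. Of the 12 measurable fibroblast and feeder markers, 4 fell and 3 rose (58.3% in all). Tagln (15.47 to 13.69), Fn1 (15.33 to 14.21), Acta2 (12.37 to 10.83) and S100a4 (8.81 to 7.64) fell. Twist1 (7.85 to 8.86) and Thy1 (12.08 to 13.58) rose, and Dcn, at 8.78 in ELA cells, was not well above background in ES cells. The collagen genes Col1a1 (8.61 and 7.71), Col1a2 (8.73 and 9.56) and Col3a1 (6.98 and 6.71) did not pass the threshold, and Postn was not well above background on either array. What part cells of other types had in the results below was not tested, and in bulk RNA fewer cells of a type and less RNA per cell cannot be told apart.

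The largest rises were not those of the standard priming markers. Ephb1, a receptor tyrosine kinase for membrane-bound B ephrins, rose from 7.29 to 11.46, an 18.04-fold difference and the largest among genes with an ordinary symbol measured on both arrays and with all probes of 1 sign. Rgl3, an exchange factor for the Ral GTPases, rose from 9.91 to 14.01, a 17.1-fold difference. Cdh22, a cadherin known from brain, rose from 6.86 to 10.27, and Ebf3, a transcription factor of neural differentiation, rose from 6.89 to 10.30, each by 10.6-fold. They were followed by genes that include Lrrc4b, a synaptic adhesion molecule (7.18 to 10.30), Camk1g, a calmodulin-dependent kinase (8.51 to 11.54), and Gng8, a G protein gamma subunit (7.54 to 10.82). Cxcl12, the chemokine ligand of the receptor CXCR4, rose from 10.60 to 13.52, a 7.55-fold difference. The others of the 15 largest rises were Vstm2l (3.33), Fabp7 (2.95), Egr2 (2.92), Galnt16 (2.87), Fgf5 (2.86), Rapgef5 (2.86) and Maml3 (2.85, with a further probe at 0.28), given as log2 differences.

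The largest falls mixed naive factors with secreted and membrane proteins. Spink1, a trypsin inhibitor that the array design calls Spink3, fell from 12.89 to 7.37, a 46.1-fold difference. Mymx, which encodes a small membrane protein that is known for myoblast fusion and which the design calls Gm7325, fell from 12.90 to 7.69, a 37.03-fold difference. Jam2, a junctional adhesion molecule, fell from 12.97 to 8.47, a 22.7-fold difference, and its 3 probes all fell. Khdc3, a member of the maternal complex of the egg cortex, fell from 11.94 to 7.80, and Morc1, a germ cell ATPase that silences transposons, fell from 13.25 to 9.48. Irak3, an inhibitor of Toll-like receptor signalling, fell from 11.41 to 7.62. The epithelial genes Tgm1, a transglutaminase of the skin barrier, and Emp1 fell by 12.95-fold and 12.9-fold. The rest of the 15 were Id1, Nr0b1, Zfp42, Nodal, Bcl3, Tfcp2l1 and Tcl1, with differences between -3.98 and -3.68.

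Genes well above background on 1 array only have a bound in place of a fold. The bound sets the bright array against the lowest signal that was well above background on the dim array, or the dim probe's own signal where that was higher. Igfbp5, which encodes a binding protein of insulin-like growth factors, was at 9.62 in ELA cells and not well above background in ES cells, so at least 6.87-fold higher. Smaller bounds were found for Sobp (5.58), Snph (4.92), Gpc6 (4.74), Trpc4 (4.74) and Dcn (4.73). In the other direction the interferon-inducible GTPase gene Gbp2 was at 11.78 in ES cells and at least 31.02-fold lower in ELA cells. Prdm14, a naive state regulator, was at least 14.2-fold lower, Gbp2b 13.4-fold, Sp5, a Wnt target, 13.1-fold, Zscan4f 11.8-fold, Zscan4e 9.10-fold, Gbp3 8.81-fold and Msln, the cell surface protein mesothelin, 8.41-fold.

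**Figure D2:**
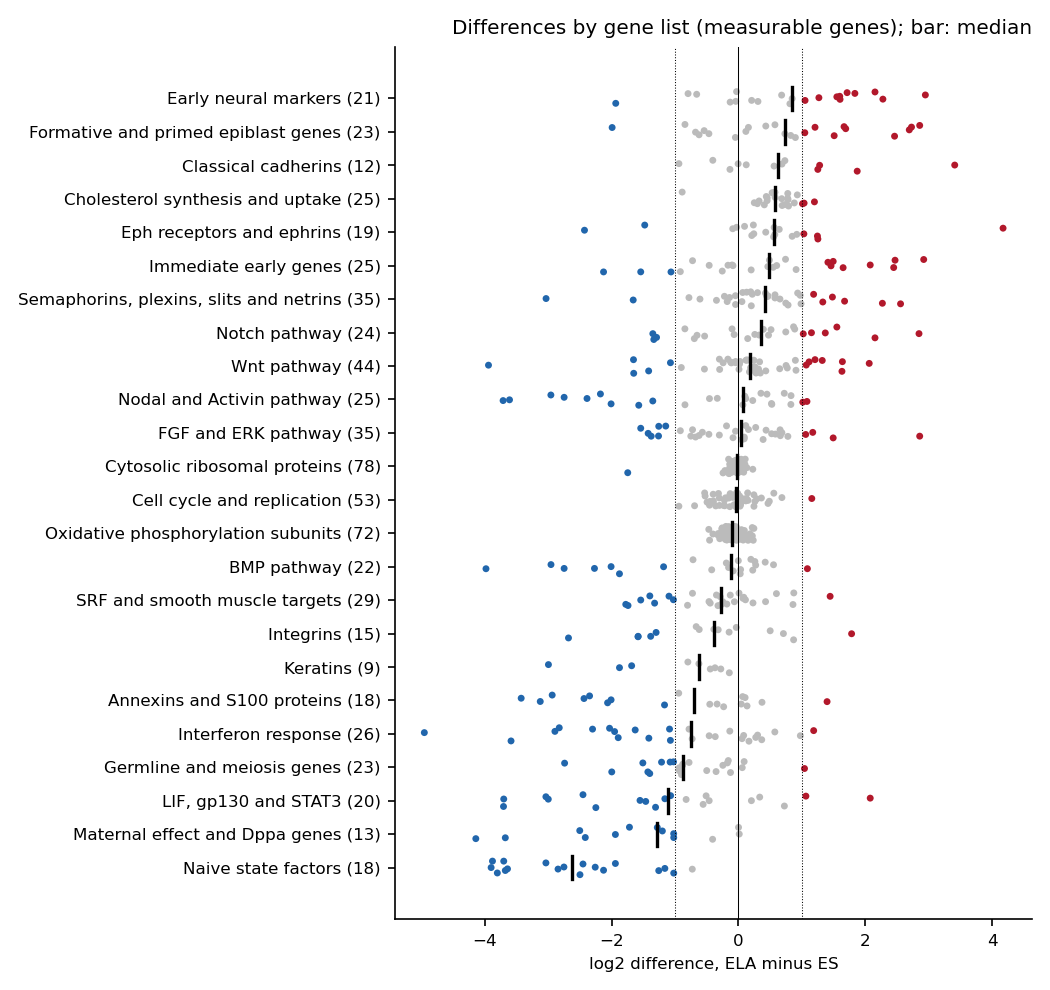
Log2 difference, ELA minus ES, of every measurable member of 24 gene lists, ordered by the list's median (black bar), with the number of members in brackets. Red points rose and blue points fell by at least 2-fold (dotted lines). The naive factors, maternal genes and the LIF list sit furthest left, neural and primed genes furthest right, while ribosomal proteins, respiratory chain subunits and cell cycle genes lie close to 0.

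In the LIF pathway, ligand binding is passed by the receptor pair LIFR and gp130 to Janus kinases and STAT3, which switches on both feedback inhibitors and naive factors. Of 20 measurable members of this list, 11 fell and 2 rose (median -1.12). Those that fell include the naive factors Klf4, Klf5, Tfcp2l1 and Gbx2, which STAT3 signalling is known to sustain. At the receptor, Lifr fell from 12.38 to 10.13, a 4.76-fold difference in its brightest probe, and the interleukin 6 receptor Il6ra from 8.46 to 7.15. The shared subunit gp130 (Il6st) stood at 11.79 and 10.97 and did not pass the threshold, and the ciliary neurotrophic factor receptor Cntfr rose from 7.24 to 8.30, with another probe at a difference of 0.38. Among the signal carriers, Stat3 fell from 12.72 to 11.17 in agreement between its 2 probes, whereas the kinases Jak1 (11.43 and 11.64) and Jak2 (9.89 and 10.62) did not pass. The deepest falls were downstream. The feedback inhibitor Socs3 fell from 13.43 to 10.43, an 8.002-fold difference, and Bcl3, an IκB family coactivator, from 13.74 to 10.03, a 13.1-fold difference. The kinase genes Pim3 (13.06 to 11.59) and Pim1 (9.93 to 8.86) fell by 2.76-fold and 2.10-fold. The inhibitors Socs1 (9.92 and 9.41) and Cish (10.27 and 9.71) did not pass the threshold.

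BMP ligands act through type I and II receptors and SMAD1 and SMAD5 on Id genes, which encode inhibitors of differentiation factors. Of the 22 measurable members, 7 fell and 1 rose (median -0.12). The ligand Bmp4 fell from 12.81 to 11.63 and Bmp8b from 10.07 to 7.80, while Bmp8a stood at 10.05 and 9.33 and Bmp7 at 9.46 and 10.01. The receptor Bmpr1a (11.80 and 11.83) and the transducers Smad1 (8.45 and 8.64) and Smad5 (12.01 and 12.28) lay close together on both arrays, and the type I receptor Acvr1 rose from 11.22 to 12.31. The target genes did not move as 1 block. Id1 fell from 14.59 to 10.61, a 15.8-fold difference, and Id2 from 13.38 to 10.42, a 7.77-fold difference. Id4 was at 8.72 in ES cells, not well above background in ELA cells and at least 3.67-fold lower. Id3, by contrast, stood at 13.44 and 13.69. The inhibitory Smad7 fell from 11.20 to 8.45, and its relative Smad6 stood at 7.90 and 7.48.

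Nodal and Activin signal through ALK4-type receptors, SMAD2 and SMAD3 and the partner FOXH1, and Lefty proteins are both targets and inhibitors of Nodal. Of the 25 measurable members, 9 fell and 2 rose (median 0.07). The ligand Nodal fell from 13.04 to 9.32, a 13.1-fold difference, and the related Gdf3 from 14.63 to 12.62. The inhibitors Lefty1 (11.51 to 7.90) and Lefty2 (11.50 to 9.11) fell by 12.2-fold and 5.24-fold. These 4 genes stood lower in ELA cells, while the related ligand Gdf1 (12.84 and 12.94) and the Activin inhibitor Fst (10.23 and 10.46) did not pass the threshold. Of the convertases that cut the Nodal precursor, Pcsk6 fell from 12.10 to 9.92 and Furin rose from 10.17 to 11.25. The inhibitory Smad7, which is on this list too, fell as above. The receptor Acvr2b rose from 14.41 to 15.42, Acvr1b stood at 10.74 and 11.57, Smad2 at 11.13 and 11.24, Smad3 at 11.53 and 12.35 and Foxh1 at 11.95 and 12.47. The co-receptor Tdgf1, also known as Cripto, stood at 12.92 and 12.08.

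**Figure D3:**
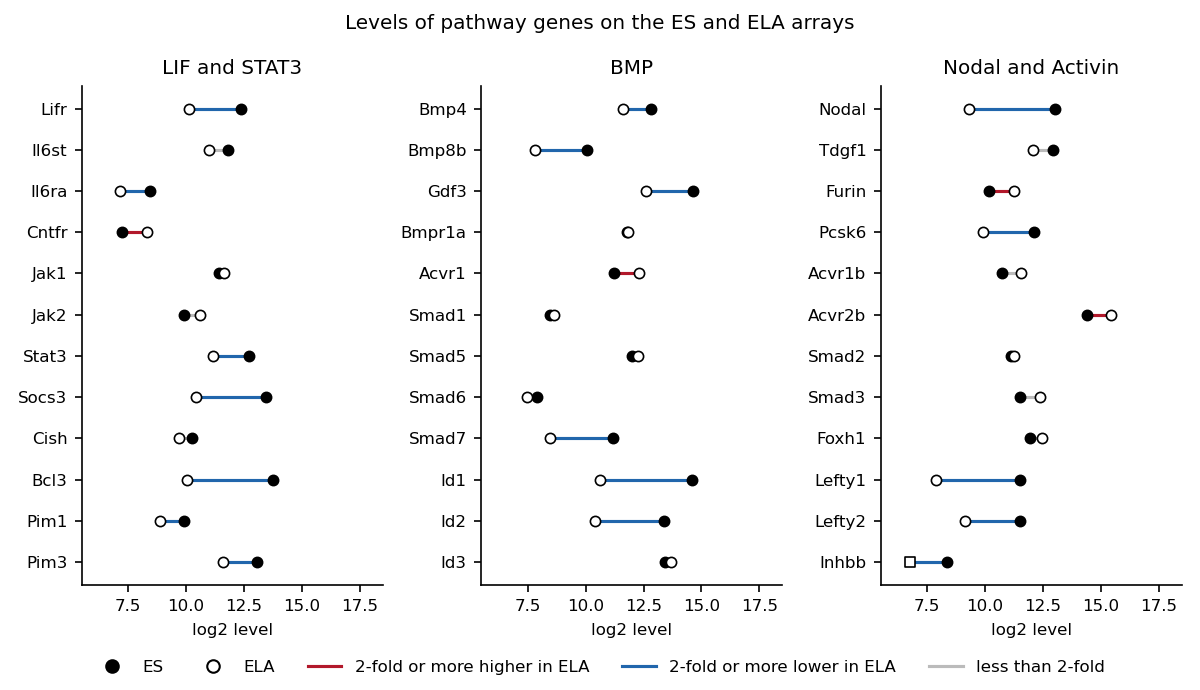
Log2 levels of 12 genes each of the LIF, BMP and Nodal pathways on the ES array (filled) and the ELA array (open), joined by a red line where the gene rose, a blue line where it fell and a grey line where it changed less than 2-fold; the square marks a probe not well above background. Among the longest blue lines are those of Nodal, Lefty1, Bcl3, Socs3, Id1 and Id2, while Bmpr1a, Smad1, Smad2, Smad5 and Id3 hardly moved.

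FGF and ERK signalling drives cells out of the naive state. Of 35 measurable genes of this pathway, 4 rose and 6 fell (median 0.05). Among ligands, Fgf5 rose as above, whereas Fgf4, the autocrine ligand of ES cells, fell from 15.24 to 13.98. The receptor Fgfr1 rose from 13.42 to 14.59 in its brightest probe, with another probe at 0.18. Feedback genes went both ways. The phosphatase Dusp4 rose from 12.01 to 13.07, Spry4 fell from 10.36 to 9.22, and Dusp6 (14.19 and 14.01), Spry2 (10.83 and 10.74) and the ETS factor genes Etv4 (13.45 and 12.77) and Etv5 (16.18 and 15.72) did not pass the threshold.

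Immediate early genes, which growth factors, serum and stress induce within minutes, rose more often than they fell. Of 25 measurable members, 8 rose and 3 fell (median 0.49). Egr2 rose from 7.48 to 10.40, Egr4 from 8.66 to 11.13 and Egr1 from 11.86 to 13.36, so 3 zinc finger genes of 1 family moved together. The AP-1 genes Fosb (7.73 to 10.18), Fos (8.35 to 10.42) and Jun (12.31 to 13.96) rose by 5.46-fold, 4.22-fold and 3.14-fold, whereas Junb stood at 7.97 and 7.51, Fosl1 at 7.996 and 7.27 and Ier2 at 10.71 and 10.54. The growth regulators Myc (11.35 to 9.81) and Mycn (15.22 to 14.15) fell, and so did the naive factor Klf2, which is also on this list. What part the handling of aggregates at harvest had in these values was not tested. Actin cytoskeleton genes that serum and the factor SRF control went the other way, with 7 of 29 fallen and 1 risen (median -0.27). Among these, Tagln fell from 15.47 to 13.69, Thbs1 from 11.14 to 9.39 and Acta2 from 12.37 to 10.83, and Actc1, cardiac actin, rose from 10.01 to 11.45.

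In the Wnt list, which runs from ligands and Frizzled receptors to targets of the factors TCF and LEF, genes moved in both directions. Of 44 measurable members, 7 rose and 5 fell (median 0.18). The Frizzled receptors Fzd2 (11.68 to 13.32), Fzd8 (7.78 to 9.41), Fzd1 (8.24 to 9.56) and Fzd7 (11.49 to 12.56) rose, while Fzd10 fell from 9.99 to 8.57. Rspo1, an enhancer of Wnt signals, rose from 11.42 to 13.49, a 4.18-fold difference, as did the nuclear effector Lef1 (12.52 to 13.73) and the secreted inhibitor Sfrp1 (8.11 to 9.22). Sp5, a direct target, was at 10.45 in ES cells and not well above background in ELA cells, and Cdx1, a target in the posterior epiblast, fell from 8.15 to 7.08. Axin2, the usual readout of the pathway, stood at 8.08 and 8.27. Porcn, the enzyme that acylates Wnt proteins, fell from 10.23 to 8.58.

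Notch components also went both ways, with 6 of 24 risen and 3 fallen (median 0.36). The ligand Dll1 rose from 7.97 to 9.52 and the target Hes5, a repressor of neurogenesis, from 8.74 to 10.89, a 4.45-fold difference. Hes1 stood at 8.14 and 8.61, and Hes3 fell from 8.79 to 7.44. The nuclear partner Rbpj fell from 13.22 to 11.89 in both of its probes. The receptors are uncertain: Notch1 fell from 10.04 to 8.75 but another probe differed by 0.47, and Notch2 rose from 10.92 to 11.94 with another probe at -0.13. In the Hedgehog pathway the transducer Smo rose from 13.12 to 14.42 (another probe differed by 0.41) and the target Gli1 fell from 12.74 to 11.40, while the receptor Ptch1 (9.16 and 9.79) did not pass the threshold. Of 14 measurable Hedgehog genes 14.3% passed, close to the 10.0% of all genes, so this count does not set the list apart. In the retinoid pathway Crabp2, a carrier of retinoic acid, rose from 13.21 to 15.61, a 5.30-fold difference, and the retinol transporter gene Stra6 from 7.06 to 8.43, in a medium made without vitamin A. Stra8, a germ cell gene that retinoic acid induces, fell from 8.41 to 7.39, so 2 of 15 measurable genes rose and 1 fell. The receptors Rara (12.72 and 13.07) and Rarg (14.17 and 13.75) did not pass.

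Eph receptors and semaphorins guide axons and sort cells. Of 19 measurable Eph receptors and ephrins, 4 rose and 2 fell (median 0.55), and all of these were receptors. Beside Ephb1, Ephb4 rose from 11.43 to 12.68 and Epha7 from 8.06 to 9.31, although another probe of Epha7 differed by 0.03. Epha2, a receptor of the naive epiblast, fell from 13.44 to 11.01, a 5.39-fold difference. Epha4 fell from 10.41 to 8.93. Ephb6 rose by 1.03 in 1 probe and differed by -0.05 in another. Of 35 semaphorins, plexins and related genes, 6 rose and 2 fell (median 0.42). The secreted ligand Sema3f rose from 9.48 to 12.03, the netrin receptor Unc5a from 8.16 to 10.43 and the membrane ligand Sema6b from 8.07 to 9.74. The semaphorin receptor Nrp2 fell from 12.99 to 9.95, an 8.20-fold difference, and the ligand Ntn1 from 9.08 to 7.42.

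Cadherins only rose, where they moved. Of 12 measurable classical cadherins, 4 rose (Cdh22, Cdh4, Cdh10 and Cdh13) and none fell (median 0.62). Cdh4, R-cadherin, rose from 8.80 to 10.67, and both of its measured probes rose. E-cadherin (Cdh1) stood at 14.30 and 14.98 and N-cadherin (Cdh2) at 11.28 and 12.01, so neither passed the threshold. Among tight junction genes, 4 of 20 rose and only Jam2 fell (median 0.42). The claudins Cldn5 (8.98 to 11.14) and Cldn3 (10.69 to 12.62) rose by 4.46-fold and 3.81-fold, and Jam3, a relative of Jam2, rose from 11.32 to 12.47.

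Integrins bind the extracellular matrix. Of 15 measurable integrins, 5 fell and 1 rose (median -0.39). Itgb7 fell from 11.53 to 8.85, and the laminin receptor subunits Itgb4 (9.87 to 8.29) and Itga3 (10.40 to 9.01) fell by 2.995-fold and 2.61-fold. The main beta subunit Itgb1 stood at 12.07 and 11.68. Itga1 is uncertain, since 1 probe rose by 1.78 and another differed by -0.80. The laminin subunit Lamb3 fell from 8.83 to 7.82 and fibronectin (Fn1) from 15.33 to 14.21, whereas the laminins Lama1 (12.74 and 12.23) and Lamb1 (14.17 and 14.02) and the collagen Col4a1 (9.97 and 10.25) did not pass. Of 9 measurable keratins, 3 fell (Krt17, Krt42 and Krt19), and all 9 had negative differences (median -0.62). Krt17 fell from 11.30 to 8.31 and Krt8 stood at 15.17 and 14.37. Perp, a desmosome component, fell from 14.01 to 11.80.

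Annexins and S100 proteins, which bind calcium and pair with each other at the membrane, fell more often than they rose. Of 18 measurable members, 8 fell and 1 rose (median -0.70). Anxa1 fell from 12.90 to 9.48, a 10.8-fold difference, Anxa8 from 10.56 to 7.43 and Anxa3 from 11.40 to 9.06. Anxa2 fell from 14.57 to 12.56 and its partner S100a10 from 13.77 to 11.33. S100a6 fell from 15.07 to 12.13, a 7.67-fold difference. Anxa4 (11.43 and 11.80), Anxa5 (11.19 and 10.95) and Anxa6 (14.04 and 13.59) did not pass the threshold, and S100a1 rose from 7.46 to 8.86.

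Early neural genes rose more often than they fell, while Sox1 and Pax6, which mark neural commitment, did not pass the threshold. Of 21 measurable early neural genes, 10 rose and 1 fell (median 0.85). Fabp7, a fatty acid carrier of radial glia, rose from 6.76 to 9.70, Nrcam, a neural adhesion molecule, from 8.78 to 11.06, and the microtubule regulators Stmn4 and Stmn3 from 11.47 to 13.31 and 10.73 to 12.33. Nefl, a neurofilament gene, fell from 12.94 to 11.002, and Ncam1 rose by 1.05 in 1 probe and differed by -0.33 in another. Among 27 regulators of anterior epiblast and neural plate, 8 rose and 4 fell (median 0.53). Zic2 rose from 9.70 to 12.16 and Zic1 from 9.74 to 11.34. Lhx2, a homeobox gene of the eye field and forebrain, rose from 7.30 to 9.31, and Ebf1 from 7.91 to 9.53. Pou5f1, which encodes Oct4, stood at 14.95 and 14.46. Among Sox genes, Sox3 rose from 11.82 to 14.55, a 6.63-fold difference, and Sox11 from 10.78 to 12.45, Sox15 fell from 9.66 to 7.67, and Sox2 stood at 13.43 and 12.77. Only 2 of 38 Hox genes with a usable probe were measurable, and neither passed the threshold.

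Chromatin genes were taken by enzyme class. Among genes of DNA methylation, the de novo methyltransferases Dnmt3a (10.34 to 11.85) and Dnmt3b (17.44 to 18.49) rose, and their cofactor Dnmt3l fell from 15.96 to 13.22, a 6.69-fold difference. Of the Tet enzymes, which oxidise methylated cytosine, Tet2 fell from 12.07 to 9.05 in all 3 probes and Tet1 from 14.56 to 13.28. The deaminase gene Apobec1, which is not a Tet gene, fell from 11.16 to 8.65. Dnmt1 (11.86 and 11.93) and Tet3 (8.80 and 8.93) did not pass. In all, 2 of 22 rose and 6 fell (median 0.03). Against 10.0% of all genes past the threshold, none of 21 lysine demethylases passed it (median 0.19), and of 39 SWI/SNF and CHD remodeller genes Bcl11a rose from 9.59 to 11.46 and Smarcd3 fell from 8.73 to 7.58 (median 0.28). Of 31 measurable Polycomb genes, 4 rose and 3 fell (median -0.02). Among PRC1 genes, Phc2 (12.08 to 13.25), Cbx2 (11.46 to 12.60) and Yaf2 (11.55 to 12.64) rose. The PRC2 genes Phf19 (10.13 to 8.73), Eed (15.85 to 14.56) and Epop (14.87 to 13.87) fell, Epop only just past the threshold. Members short of it went both ways, such as the PRC1 genes Bmi1 (9.29 and 10.14) and Cbx7 (8.98 and 8.25). The catalytic subunits Ezh2 (13.23 and 13.21) and Rnf2 (12.34 and 12.15) lay close together on both arrays.

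Shares past the threshold were 12% of the cholesterol, 17.2% of the fatty acid and 15.6% of the glutathione genes, against 10.0% of all genes. Of 25 measurable genes of cholesterol synthesis and uptake, 3 rose, Msmo1 and Mvk among them, and none fell, but 24 had a positive difference (median 0.58). Msmo1, a sterol oxidase, rose from 14.04 to 15.07 and Mvk, the mevalonate kinase, from 13.45 to 14.46, while Hmgcs1, an early enzyme of the pathway, stood at 14.99 and 15.92. Taken relative to the median gene, the list's median lay between 0.57 and 0.65 under every alternative processing tried. Of 29 fatty acid genes, 4 rose and 1 fell (median 0.33). The desaturases Fads1 (10.89 to 11.91) and Fads2 (10.24 to 11.28) rose and Cpt1a, the gate to mitochondrial oxidation, fell from 10.30 to 8.66 (another probe differed by -0.59). Glycolysis was nearly level (median 0.08), with Ldhb risen from 14.82 to 15.84 and Pfkp fallen from 12.35 to 11.21 (another probe differed by -0.29). Tdh, the threonine dehydrogenase on which mouse ES cells depend, fell from 17.29 to 15.52 in both probes. Glutathione and detoxification genes only fell, where they moved (5 of 32), with Ephx1 from 11.67 to 8.87 in its brightest probe (another differed by -0.35), Gsta3 from 9.78 to 7.66 and Gpx4 from 16.40 to 15.37. None of 72 respiratory chain subunits passed the threshold (median -0.10). Nor did any of 19 chaperones of the unfolded protein response (median 0.002).

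Of the stress lists, the shares past the threshold were close to the 10.0% of all genes for hypoxia (10.0%), p53 (9.09%) and heat shock genes (11.1%), so these counts do not set the lists apart. Of 28 measurable genes of the ATF4 and amino acid response, 4 rose and 1 fell (median 0.16). Vldlr, a lipoprotein receptor, rose from 7.85 to 10.49, the glycine transporter gene Slc6a9 from 9.35 to 11.16 and Ddit3, which encodes the stress factor CHOP, from 8.28 to 9.86. The arginine transporter gene Slc7a1 fell from 12.83 to 11.77, and Atf4 itself stood at 16.22 and 16.23. Of 20 hypoxia targets, Egln3 (9.91 to 11.10) and Loxl2 (9.03 to 10.24, with another probe at a difference of 0.14) rose and none fell (median 0.21), with Vegfa at 8.53 and 9.40. Of 22 p53 targets, Perp and Plk2 (10.71 to 9.52) fell and none rose (median -0.14), while Cdkn1a, which encodes p21, stood at 11.40 and 11.42. Of 18 cytosolic heat shock genes, the small chaperones Hspb1 (17.38 to 15.27) and Cryab (11.18 to 9.80) fell and none rose (median -0.17). Promoters held the ATF4 motif TGATGNAA in 7 of 24 members of its list, against 2.23% of all measurable genes with a promoter sequence, but of these 7 only Chac1 passed the threshold. The hypoxia motif ACGTGC was in 8 of 16 members, against 8.21%, and none of the 8 passed.

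Metallothioneins are small proteins that hold zinc and copper. Their genes carry metal response elements, to which the factor MTF1 binds. Mt2 rose from 15.50 to 17.78, a 4.83-fold difference, and Mt1 from 15.75 to 17.65, a 3.74-fold difference. The zinc exporter gene Slc30a1, a further known target of MTF1, rose from 8.998 to 10.38 and the importer Slc39a8 from 10.36 to 11.54. Mt3 stood at 10.13 and 10.15 and Mtf1 at 9.54 and 9.24. Transferrin (Trf) fell from 10.53 to 8.94 and the heme oxygenase gene Hmox1 from 14.05 to 12.97, so of 23 measurable genes 4 rose and 2 fell (median -0.13). The motif TGCGCNC, searched on both strands from 250 bases before to 50 bases after the start, was present in 6 of 16 list members with a promoter sequence, against 27.0% of all measurable genes with one. The 6 are Mt1, Mt2 and Slc30a1, which rose, and Tfrc, Slc30a2 and Slc30a4, which did not pass the threshold. The RefSeq sequence (GRCm38.p6) upstream of Mt2 is shown because it is the gene of this list with the largest rise and its match lies before the start, with the motif in capitals, at chr8:94172450-94172536 on the plus strand.
Mt2: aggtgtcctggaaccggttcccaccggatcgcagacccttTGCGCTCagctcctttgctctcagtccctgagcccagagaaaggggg

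Interferon-stimulated genes, which cells use against viruses, fell more often than they rose. Of 26 measurable antiviral and MHC class I genes, 12 fell and 1 rose (median -0.76). The membrane proteins Ifitm1 (16.62 to 13.79) and Ifitm3 (14.66 to 12.36), which block viral entry and are also known from early embryonic cells, fell by 7.10-fold and 4.93-fold. The synthetase genes Oasl2 (10.09 to 7.20), Oas2 (10.12 to 8.08) and Oas1a (11.86 to 10.23) fell. So did Ddx58, the RNA sensor RIG-I (13.02 to 11.07), the immunoproteasome subunit Psmb8 (10.62 to 8.73) the factor Irf1 (14.31 to 12.90) and the ubiquitin-like modifier Isg15 (9.66 to 8.59). Gbp2 and Gbp3 were not well above background in ELA cells and at least 31.02-fold and 8.81-fold lower. Stat2 (11.30 and 11.57), B2m (12.43 and 12.29) and Bst2 (13.33 and 14.30) did not pass the threshold, and the exonuclease gene Isg20 rose from 9.17 to 10.36. In the same direction, 4 of the 5 poly-ADP-ribosyl transferase (Parp) genes past the threshold fell, and these were Parp14 (10.55 to 8.74), Parp9 (11.56 to 9.76), Parp10 (13.33 to 12.21) and Parp12 (8.98 to 7.96), which interferon is known to induce, whereas Parp8 rose from 8.23 to 9.66.

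Interferon-stimulated genes share a promoter element with the repeated letters GAAA, bound by interferon regulatory factors and their partners. Its 9-letter part GAAANNGAA, searched on both strands in the same window, was present in 12 of 24 measurable list members with a promoter sequence, 6 of the 12 that fell or rose, and 6.70% of all measurable genes with one. This motif was added after the values had been seen. A match is a description of the letters and not a bound site. The upstream sequences from RefSeq (GRCm38.p6) of the members past the threshold whose motif lies before the start are given below, 5′ to 3′ along the gene's strand, with matches in capitals. Gbp3 and Gbp2 lie on chromosome 3, at chr3:142559960-142560043 and chr3:142620565-142620653 on the plus strand. Oas1a is at chr5:120907526-120907585 and Isg15 at chr4:156200836-156200936, both on the minus strand. Each stretch covers the matches and up to 40 bases on either side. The matches overlap one another in Gbp3, Oas1a and Isg15, and Gbp2 has a single match.
Gbp2: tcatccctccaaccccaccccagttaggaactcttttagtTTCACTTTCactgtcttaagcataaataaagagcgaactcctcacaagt
Gbp3: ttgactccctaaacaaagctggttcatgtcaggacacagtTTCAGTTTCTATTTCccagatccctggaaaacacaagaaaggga
Oas1a: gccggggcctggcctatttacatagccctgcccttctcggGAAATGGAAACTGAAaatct
Isg15: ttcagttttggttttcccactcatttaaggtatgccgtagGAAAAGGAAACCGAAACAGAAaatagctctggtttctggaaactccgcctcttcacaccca

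**Figure D4:**
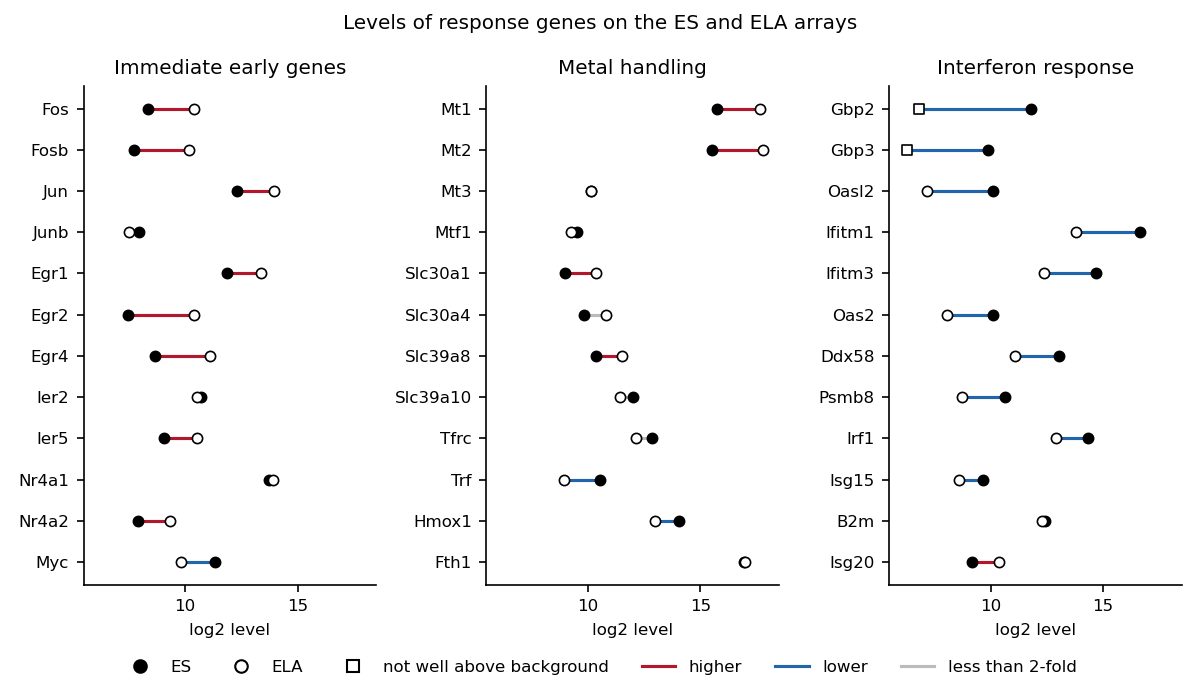
Log2 levels of 12 immediate early genes, 12 genes of metal handling and 12 interferon response genes on the ES array (filled) and the ELA array (open). Squares mark probes not well above background on that array, and red, blue and grey lines mark genes that rose, fell or changed less than 2-fold. The interferon genes drawn are a chosen part of 26 measurable ones, of which 13 did not pass the threshold and 9 had positive differences. Those drawn run to lower ELA levels except B2m, which hardly moved, and Isg20.

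Forkhead, microtubule and small RNA genes made up further lists. Foxa2, a factor of endoderm and floor plate, rose from 6.82 to 8.63 and Foxd4 from 7.23 to 8.47, and Foxn2 fell from 10.37 to 9.23, among 22 measurable Fox genes (median 0.34). Their share past the threshold, 13.6%, was close to the 10.0% of all genes, so this count does not set the Fox list apart. Foxd3, a factor of epiblast and neural crest, stood at 12.27 and 12.23. Of 30 tubulin, stathmin and related genes of the neuronal cytoskeleton, 7 rose and 1 fell (median 0.36). The collapsin response genes Dpysl2 (11.66 to 13.11), Dpysl3 (12.37 to 13.44) and Dpysl4 (9.43 to 10.45) which act downstream of semaphorins, rose, but another probe of Dpysl3 differed by 0.21. Of the same family, Dpysl5 (13.49 and 13.99) and Crmp1 (12.59 and 13.56) did not pass. Dclk1, a doublecortin-like kinase, rose from 7.52 to 8.86. The axonal protein gene Mapt, which encodes tau, fell from 10.15 to 8.82. In the microRNA machinery, Tnrc6c (9.82 to 11.31) and the Dicer partner Prkra (10.55 to 11.86) rose and the helicase Mov10 fell from 13.70 to 12.11, while Dicer1 (11.88 and 12.15), Drosha (14.57 and 14.41) and Lin28a (15.23 and 15.78) did not pass. Snai1, a repressor of E-cadherin at the primitive streak, rose from 9.18 to 10.81 and was the only 1 of 8 measurable streak and mesoderm genes past the threshold, a share of 12.5% against 10.0% of all genes. Car14, a carbonic anhydrase, rose from 9.95 to 12.65, a 6.47-fold difference, and Car12 fell from 9.85 to 8.77. Among serine and one-carbon genes, Cth, which makes cysteine, fell from 12.47 to 11.05 beside Tdh, so that 7.14% of 28 passed the threshold, against 10.0% of all genes.

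Genes of germ cells and of the early embryo fell more often than they rose. Of 13 measurable maternal effect and Dppa genes, 10 fell and none rose (median -1.28). Beside Khdc3, its partner in the maternal complex Tle6 fell from 11.004 to 8.50, the egg coat gene Zp3 from 11.12 to 8.70, and Dppa2 and Dppa4, which encode a chromatin-bound pair, from 13.43 to 11.71 and 14.08 to 12.88. Of 23 germline and meiosis genes, 8 fell and 1 rose (median -0.88). The synaptonemal complex genes split, with Syce1 fallen from 12.39 to 10.39 and Sycp1 from 8.70 to 7.19 and Sycp3 risen from 12.71 to 13.75. Of genes that mark the rare ES cells resembling the 2-cell embryo, Zscan4f and Zscan4e were not well above background in ELA cells and Zfp352 fell from 13.66 to 12.41, while Zscan4c stood at 8.86 and 8.56. Zscan4 copies are nearly identical, so a probe can read several of them. Of 8 measurable Rhox genes of the X-linked cluster, Rhox6 (10.97 to 8.98), Rhox9 (11.01 to 9.15) and Rhox13 (10.23 to 8.43) fell and Rhox3a rose from 7.27 to 8.73. Imprinted genes had no common direction (5 of 37 rose and 4 fell). Magel2 rose from 10.96 to 13.28, Ddc fell from 11.98 to 9.45 and Phlda2 from 11.71 to 9.33, and the noncoding Meg3 (15.28 and 15.93) and H19 (8.07 and 8.01) did not pass the threshold.

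Some falls lay side by side in the genome. In windows of 1 Mb along build mm9, the build of the probe positions, 676 windows held at least 10 measurable genes, and a median of 8.33% of them passed the threshold. In 3 windows the share reached 50% or more, and in each of these every gene past the threshold fell. This scan was added after the values had been seen. The window at chromosome 4, 146000001 to 147000000, had 13 of 19 fallen. It holds the zinc finger genes Zfp600 (12.01 to 10.43), Zfp982 (13.24 to 11.90), Zfp985 (14.78 to 13.73) and Zfp979 (14.57 to 13.42) and long noncoding transcripts between them. The deepest fall there was that of the noncoding transcript at chr4:146017200-146029700 on the forward strand, from 10.92 to 7.36, the largest among 2086 measurable noncoding transcripts that the array names by position. Of those transcripts 118 (5.66%) fell, close to the 5.59% of all genes, so this count does not set them apart. A further 40 (1.92%) rose, against 4.45% of all genes. Differences within the window ran from -3.56 to -0.17, all of them negative. Just outside it Rex2, another zinc finger gene, fell from 16.55 to 14.67. The window at chromosome 13, 66000001 to 67000000, had 9 of 11 fallen and none risen. They are predicted genes and unnamed or noncoding transcripts, such as Gm10324 (14.999 to 13.37). The window at chromosome 8, 22000001 to 23000000, had 8 of 10 fallen, all of them alpha-defensin genes, pseudogenes or transcripts, such as Defa3 (10.27 to 7.84) and Defa23 (10.14 to 7.78). Zinc finger and defensin genes in such clusters can be near-identical copies, and to what extent a transcript of 1 copy lit the probes of others was not tested. The neighbours Apobec1, Gdf3, Dppa3 and Nanog on chromosome 6 fell as well, in a window where 6 of 21 measurable genes passed the threshold, with Mfap5 and the Nanog pseudogene Nanogpd as the remaining ones.

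**Figure D5:**
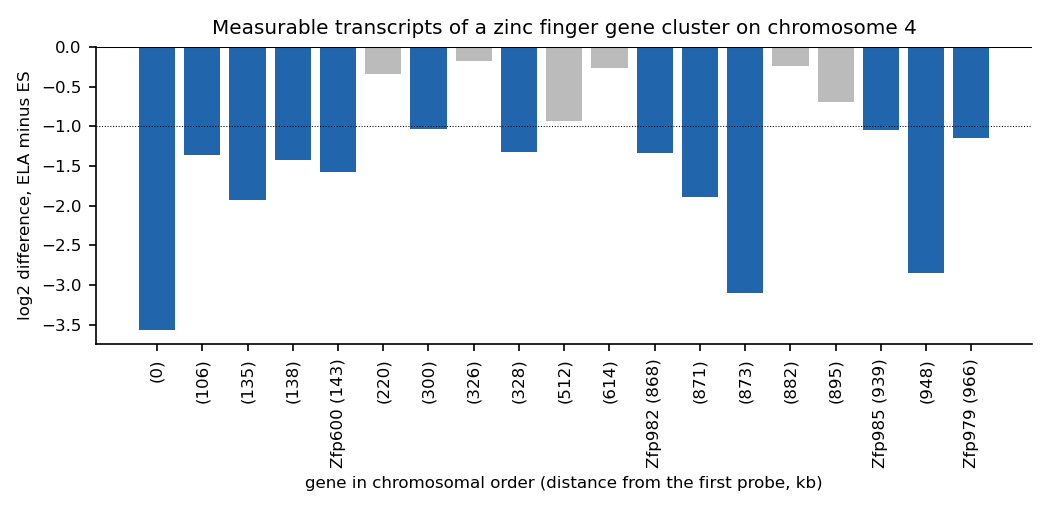
Bars give the log2 difference, ELA minus ES, of the 19 measurable transcripts in the window on chromosome 4, in chromosomal order with the distance from the first probe in kb in brackets. Blue bars fell by at least 2-fold (dotted line), grey bars did not. Named bars are zinc finger genes and the other bars noncoding or unnamed transcripts.

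A scan over all symbol families, formed by the letters before the first digit, put these results beside the rest of the genome. Of 155 families with at least 10 measurable genes, the median had 7.69% of its genes past the threshold, and 41 had none. The Frizzled (Fzd) and Parp families had the highest share, each with 5 of 10 genes. They were followed by the kallikreins (Klk), with 5 of 11 past the threshold and all of these lower, the Klf factors with 6 of 14, of which Klf15 alone rose (8.95 to 10.13), and the Sox family with 5 of 12, of which 1 is the noncoding Sox2ot. Klk1 fell from 8.95 to 6.86 and Klk1b5 from 9.87 to 7.39, but the Klk1b genes are tandem copies that can share probe signal. At the other end, none of 48 mitochondrial ribosomal proteins of the large subunit (Mrpl), 44 genes with the symbol Rps (ribosomal proteins of the cytosolic small subunit and S6 kinases), 29 of the mitochondrial small subunit (Mrps), 28 Ap or 28 RNA polymerase (Polr) genes passed the threshold. Of the longer list of 78 cytosolic ribosomal proteins, Rpl39l, a paralog used in testis, fell from 12.20 to 10.45, and no other member passed. Rpl10l, a further paralog of the Rpl family that is not on that list, fell from 12.77 to 11.06. Cell cycle and replication genes were similarly level, with Cdkn1b, the inhibitor p27, the only one of 53 past the threshold (risen from 11.16 to 12.32, with another probe at a difference of 0.54).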

How the data were processed

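RNA was measured on 1-colour Agilent 8x60K mouse arrays, 1 array per group, in pooled RNA. The deposited scanner files hold spot intensities that, per the file headers, came from Agilent Feature Extraction with its flags for background and outliers. The authors also deposited a table of log2 values of the same arrays, normalised by them, which was used as an alternative only. Its columns have medians of 6.23 (ES) and 6.21 (ELA). They correlated with the scanner-derived values across probes at r = 0.991 on both arrays, and at 0.925 for the difference. A correlation does not compare scale. With the authors' values, 1510 of the 1904 genes past the threshold (79.3%) passed it again, and none passed in the opposite direction. Of the values of named and listed genes past the threshold, 112 moved by more than 0.22 relative to the median gene and 190 did not. None of these values changed sign. Mean spot intensities were corrected for local background with normexp (offset 50) and quantile-normalised over the 4 arrays in limma 3.58.1 (R 4.3.3). Control spots and spots flagged as outliers were then left out and replicate spots averaged, which left 55122 of 55681 probes with a usable spot on every array. Names came from RefSeq (GRCm38.p6) for 26582 probes matched by accession, and otherwise from the array design, and a gene took the probe with the highest mean. Gene tables, families and motifs were computed in Python 3.11.15. Only the background correction, the quantile normalisation and the 2-fold threshold were tested on simulated arrays, which were built from the ES array.

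With 1 array per group no test was possible. The number of arrays limits the precision. The members, lists and thresholds were chosen with earlier results of these data known. Genes were named by rule: the 15 largest rises and falls among genes with an ordinary symbol, signal over background on each array and probes of 1 sign, the 8 largest bounds each way, up to 4 members each way of each list, the 5 families with the highest and with the lowest share, and genes whose probes passed in opposite directions. Some genes that the rule names are not reported here. Members named for their role, the windows and 2 motifs (GAAANNGAA and TGACGTCA) were added after values had been seen. The motif TGACGTCA was in the promoters of 2 of 21 immediate early genes, against 3.29% of all. The sterol motif TCACNCCAC was in 1 of 17 members of its list, against 1.13% of all promoters. The STAT motif TTCCNGGAA was in 1 of 18 (1.24% of all), the TCF/LEF motif CTTTGAT in 1 of 26 (2.39%), the ETS motif CCGGAAG in 1 of 23 (17.6%), the E box CACGTG in 4 of 26 glycolysis genes (10.4%) and the BMP motif GGCGCC in 6 of 16 (21.1%).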

Additional observations from a re-analysis of the deposited data

How the results depend on the processing

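No paired analysis was possible because each group was 1 array, and leaving out a replicate was likewise impossible. Over 14 alternatives, 10 of 42 counts moved by over 1.5 times. With scaling to the E1A spike-in probes 4354 genes passed the threshold, 304 higher and 4050 lower, and with median scaling 553 were higher. With a mean level of at least 9, 1204 passed (543 higher, 661 lower), and with a difference of at least 1.5, 839 passed (325 higher, 514 lower). Single genes were followed relative to the median gene. Of 3828 values of the named and listed genes past the threshold, 6 changed sign, all where the most opposed probe of a gene was used: Ephb6 (-0.052), Itga1 (-0.80), Nanog (0.23), Ncam1 (-0.33), Notch1 (0.47) and Notch2 (-0.13). Another 536 moved by more than 0.22, the spread of a difference between replicate spots, and 3286 did not. Of 792 values of list medians 26 moved. In 10 of 61 lists the median changed sign under at least 1 alternative, and 9 of these lie within 0.07 of 0, the Nodal, FGF, Polycomb, DNA methylation and ribosomal lists among them. The other was that of the streak and mesoderm genes, at 0.36 and as low as -0.43. Why the probes of a gene differed was not tested. Signal limits the comparison at the low end, since genes near background have only a bound.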

Other observations

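The 2 largest differences on the ES and ELA arrays came from probes with 1 spot each. Probe 4933407C09Rik stood at 7.19 on the ES array and 18.25 on the ELA array, but at 6.90 and 6.29 on the ELA arrays with AZA and CHQ. The unnamed probe A_55_P1994184 stood at 6.28 and 17.27, and at 6.24 and 6.09 on the treated arrays. Neither was flagged as an outlier or as saturated, and the cause was not tested.

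Genes with several measurable probes give a further view of single values. Of 556 such genes with at least 1 probe past the threshold, all probes had 1 sign in 497, and every probe passed in the same direction in 239. In 3 genes 1 probe passed in each direction, with differences of -1.54 and 1.56 in Gm7167, -1.58 and 1.005 in Fam178b and -1.45 and 1.23 in a noncoding transcript of chromosome 18.

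Some genes that the report names as past the threshold by their brightest probe have a further probe of the same sign short of it, beside those given there. Among rises the further probes differed by 0.72 in Dclk1, 0.92 in Dpysl4, 0.87 in Ephb4, 0.77 in Fads2, 0.98 in Fzd2, 0.998 in Mvk and 0.94 in Sycp3. Among falls they differed by -0.95 in Ddx58, -0.63 in Isg15, -0.52 in Mapt and -0.80 in Ntn1.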
